A study of Danio rerio with 2 samples.

Results

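The Hox genes of the zebrafish were followed through the cells of the embryonic tail. All genes whose symbol names a member of the 7 zebrafish Hox clusters (hoxaa, hoxab, hoxba, hoxbb, hoxca, hoxcb and hoxda) were taken, which gave 48 genes of the 26764 gene symbols counted. They fall into 13 paralogue groups, numbered from the end of the cluster that is active toward the head to the end that is active toward the tail tip. The embryos were of strain AB, were 48 h old after fertilisation and carried TgBAC(isl1:TagRFP) and Tg(dab2:EGFP), which place a red reporter under regulatory sequence of the LIM homeodomain gene isl1 and a green one under that of dab2, an endocytic adaptor gene of venous and lymphatic endothelium. Tail cells were sorted as TagRFP+/EGFP+ (labelled isl1-derived endothelial cells) or TagRFP-/EGFP+ (labelled other endothelial cells), and each fraction gave 1 single-cell library. All cells came from embryos with both transgenes, and the number of embryos per library is not given in the sources used here.

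Hox proteins are homeodomain transcription factors that give cells along the head-to-tail axis their regional identity. The order of the genes along a cluster matches the order of their expression along the axis, so that the highest-numbered groups mark the posterior trunk and tail. In blood development Hox factors and their cofactors of the Pbx and Meis families are known from mice to act in stem and progenitor cells, and in zebrafish the caudal-type gene cdx4 sets the Hox levels that the blood-forming mesoderm needs.

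The libraries held 2072 barcodes with 26865577 unique molecular identifiers (UMIs, each a tag for 1 captured transcript) and 730 barcodes with 5698957 UMIs. Here and below, where values stand in pairs, the first is that of the library labelled isl1-derived and the second that of the library labelled other. Filtering left 2015 and 708 cells with a median of 9757 and 6636 UMIs, and the libraries shared 0 barcodes. Reporter RNA ran against the labels: TagRFP was at 5.31 and 28.3 UMIs per 1000000 (CPM) in the endothelial cells, and isl1 itself was at 2.56 and 20.1 CPM, so both were higher under the label of the TagRFP- fraction. Every direction between the libraries below is therefore given by label only. Each fraction has a single library, hence no replicates and no test over samples. Brackets give exact 95% intervals that cover counting error only, and the repeat of a pattern in both libraries is a repeat in separate sort fractions, not in replicates.

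Cells were placed in classes by the RNA of a few defining genes. Endothelial cells had at least 10 UMIs per 10000 of cdh5, tie1, egfl7 and clec14a together, and blood progenitor cells had at least 3 UMIs of myb, runx1 and gata2b together. Cells of both rules were kept apart. This gave 1301 and 573 endothelial cells, 474 and 40 blood progenitor cells, 68 and 13 cells that met both rules, and 172 and 82 remaining cells. Sums of markers that the rules did not use stood with the names. The 10 endothelial markers (kdrl, cldn5b, flt4 and others) had 4574 and 4027 CPM in endothelial and 471 and 586 CPM in blood progenitor cells. The 11 blood markers had 559 and 579 CPM in endothelial and 1534 and 1512 CPM in blood progenitor cells. Of the blood list lmo2 ran the other way, at 473 and 514 CPM in endothelial against 222 and 171 CPM in blood progenitor cells. It held most of the endothelial sum of that list. In blood progenitor cells itga2b had 1 and 0 UMIs and gfi1b 20 and 1. Blood progenitor cells also held RNA of 7 myeloid markers, at 2505 and 277 CPM against 77.2 and 4.47 CPM in endothelial cells, most of it from lyz (2402 and 261 CPM), while mpeg1.1 and marco had 0 UMIs there. They held 9 erythroid markers at 938 and 281 against 128 and 47.9 CPM. Both lists moved with the contrast of the classes and differed between the libraries, and their part in the Hox differences was not tested. Endothelial cells were divided further. Those with at least 10 UMIs per 10000 of esm1, a tip-cell gene, were esm1-high (241 and 33 cells). Of the others, 353 and 78 were aqp8a.1-high, with at least 30 UMIs per 10000 of this water-channel gene, and 422 and 360 were stab2-high, with at least 10 UMIs per 10000 of this scavenger receptor gene of venous and lymphatic endothelium. A further 40 and 29 were high for both genes and 245 and 73 for neither. An arterial list of 7 genes summed to 4199 and 3374 CPM in aqp8a.1-high cells against 809 and 920.0 CPM in stab2-high cells, and a venous list of 6 genes ran the other way (1020.1 and 1464 against 7575 and 8346 CPM).

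Endothelial cells of the tail held UMIs of nearly the whole Hox complement. Of the 48 genes, 48 and 45 had at least 1 UMI in endothelial cells. The 3 without one in the library labelled other were hoxb1a, hoxc4a and hoxc5a. In the library labelled isl1-derived hoxc4a was counted on 1 UMI and hoxb1a on 2. Blood progenitor cells held UMIs of 43 and 35 Hox genes and remaining cells of 44 and 44, so this breadth was not particular to endothelial cells. The share of all genes detected is not given here. Hox UMIs made up 1552 (1528 to 1576) and 1611 (1572 to 1650.3) CPM of the endothelial RNA, and a single endothelial cell held UMIs of a median of 8 and 7 different Hox genes. With each cell thinned to 2000 UMIs the median was 2 and 3 genes, and 89.4% (87.6 to 91.1) and 95% (92.8 to 96.7) of endothelial cells had at least 1 Hox UMI. Thinning left out 62 and 30 endothelial cells with fewer UMIs, and before it the shares were 96.2% and 98.4%. The RNA was unevenly spread over the genes: 10 of the 48 held 59.2% of all Hox UMIs of both libraries, and 36 genes had 100 UMIs or more.

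The profile over paralogue groups had 3 peaks in the endothelial cells of both libraries, at groups 3, 9 and 11. Group 9 was at 347 (336 to 358) and 313 (296 to 331) CPM, group 3 at 317 (307 to 328) and 336 (319 to 355) CPM, and group 11 at 260.2 (251 to 270.2) and 275 (259 to 292) CPM. The order of groups 3 and 9 differed between the libraries. Groups 1, 2 and 5 were the lowest: group 1 was at 8.92 and 6.95 CPM, group 2 at 12.1 and 16.1 CPM and group 5 at 13.2 and 11.4 CPM. Groups 9 to 13, which include the homologues of the Drosophila gene Abdominal-B, gave 59.0% (58.3 to 59.8) and 60.5% (59.3 to 61.7) of the endothelial Hox UMIs. These are counts of tagged transcript ends and were not divided by gene length. The sums were also not divided by the number of genes in a group, which differs: group 7 has hoxb7a as its only member. In an annotation described below, hoxc3a, hoxb3a and hoxd3a of group 3 span genes of groups 4, 5, 6, 8 and 9. The gene hoxb1b of group 1 spans genes of groups 5 and 6. The division of UMIs between these groups is therefore uncertain, which limits the peak at group 3 and the low level of group 5.

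**Figure D1:**
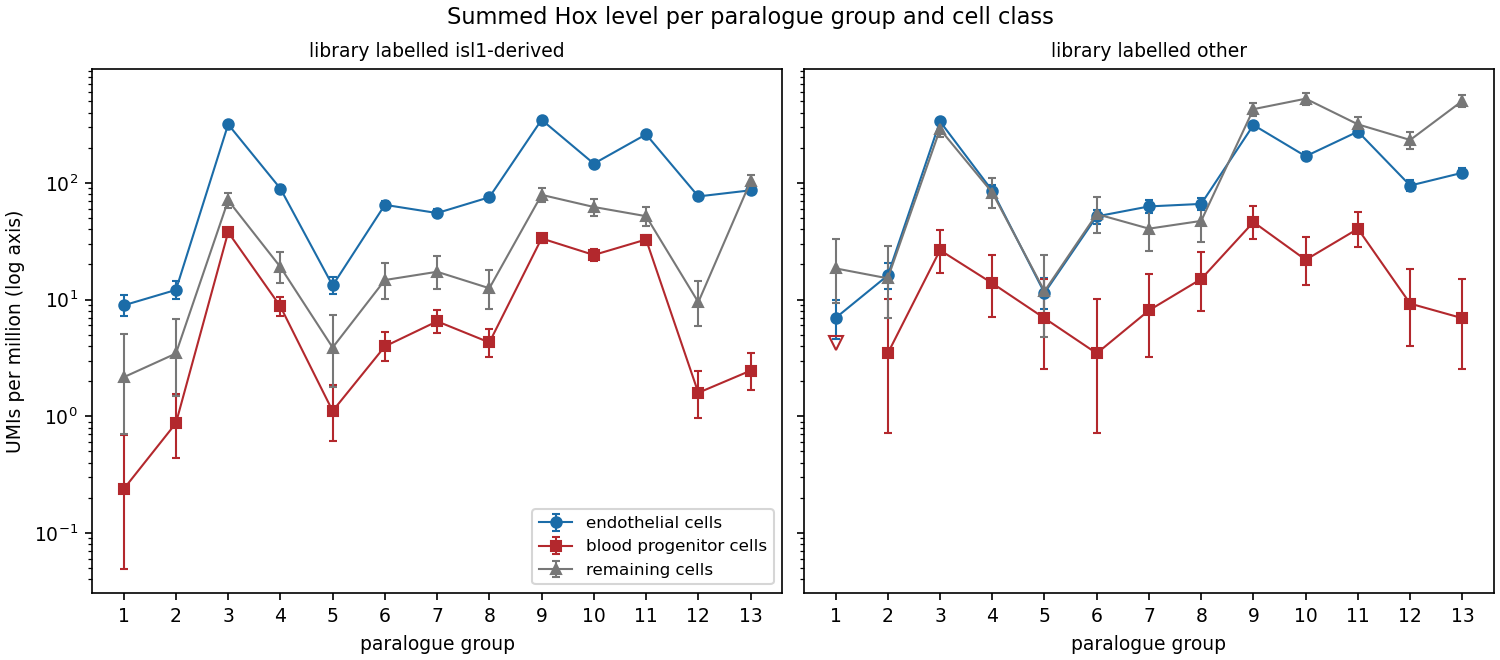
Summed level of the Hox genes of each paralogue group (x axis) in CPM (y axis, log scale) in endothelial, blood progenitor and remaining cells, 1 panel per library; bars are exact Poisson 95% intervals and the open triangle is the upper limit of a group at 0 UMIs. Endothelial cells peaked at groups 3, 9 and 11, and blood progenitor cells lay below them in each group. In the library labelled isl1-derived blood progenitor cells dropped further at groups 12 and 13, and at group 1 on 3 UMIs. Genes of group 3 span genes of groups 4, 5, 6, 8 and 9, so the division of UMIs between these groups is uncertain.

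Among the genes of the anterior groups, hoxb1b led group 1 with 6.83 and 5.21 endothelial CPM and hoxb2a led group 2 with 7.69 and 11.4 CPM. Group 3 carried the most abundant Hox gene of the data, hoxc3a, at 170.2 (162 to 178) and 171 (158 to 184) CPM, and hoxb3a at 104 and 134 CPM. A limit stands beside both genes: in the RefSeq annotation of another genome assembly (GRCz12tu) the hoxc3a gene spans hoxc4a, hoxc5a, hoxc6a, hoxc8a and hoxc9a, and hoxb3a spans hoxb4a, hoxb5a and hoxb6a, so the division of UMIs within these stretches is uncertain. The same holds for hoxd3a over hoxd4a and for hoxb1b over hoxb5b and hoxb6b. In groups 4 to 8 single genes stood out: hoxa4a with 83.3 and 81.1 CPM, hoxc6b with 46.0 and 31.3 CPM, hoxb7a with 55.1 and 62.8 CPM and hoxb8a with 59.3 and 51.6 CPM. Group 5 was low throughout, and its leading gene hoxb5a reached 7.12 and 6.45 CPM.

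In the posterior groups the RNA was shared by more genes. The gene hoxd9a led group 9 with 128 and 92.3 CPM, followed by hoxb9a with 93.4 and 92.0 CPM. Group 10 was led by hoxc10a with 51.4 and 77.9 CPM, group 11 by hoxa11b with 115 and 144 CPM, and group 12 by hoxd12a with 50.4 and 63.3 CPM. The 6 genes of group 13, whose homologues in mice pattern the tail end of the trunk, the distal limb and the urogenital tract, were all detected. The lowest was hoxa13b with 5.03 and 5.21 CPM, and the highest were hoxc13b with 22.9 and 29.3 CPM and hoxc13a with 20.5 and 29.8 CPM. The 2 rarest genes were hoxb1a, with 2 and 0 UMIs over all cells, and hoxc4a with 1 and 0. A count of 0 in the library labelled other allows a level of up to 0.529 CPM when only counting error is considered. The limit on genes that span others applies to hoxc4a, which lies within the span of hoxc3a, so its level may be higher.

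**Figure D2:**
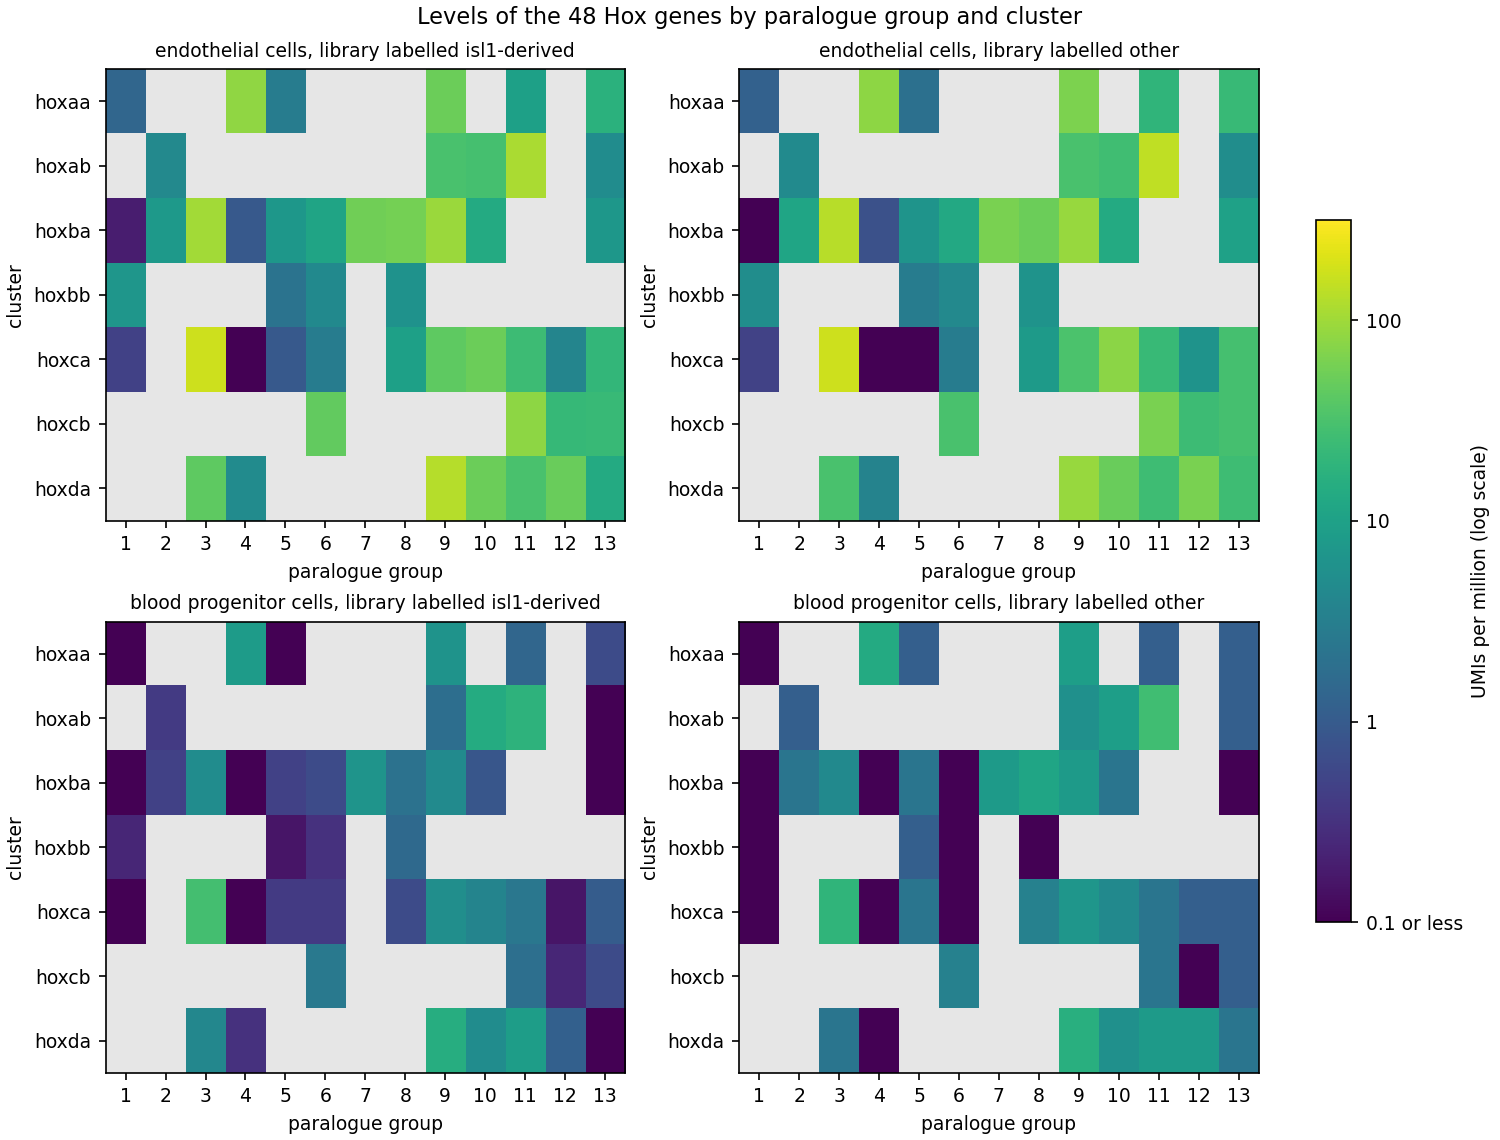
Level of each of the 48 Hox genes in CPM (colour, log scale, with 0.1 or less in the darkest tone) by paralogue group (x axis) and cluster (y axis) in endothelial and blood progenitor cells of each library; grey marks positions without a gene. In endothelial cells hoxc3a was the brightest gene of the hoxca cluster at 170.2 and 171 CPM, and blood progenitor cells kept visible levels of hoxc3a, hoxd9a, hoxa10b and hoxa11b.

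Blood progenitor cells held much less Hox RNA per UMI than endothelial cells. The total was 158 (151 to 165) and 202 (173 to 234) CPM, which put endothelial cells 9.83-fold (9.39 to 10.3) and 7.98-fold (6.87 to 9.32) higher. Blood progenitor cells were far deeper, with a median of 26284 and 22056 UMIs against 7693 and 6342. Counted per cell and not as a share of all UMIs, the means were 12.6 and 11.3 Hox UMIs in endothelial cells and 4.19 and 4.38 in blood progenitor cells, and the ratio was 3.0 and 2.59, so this choice sets the size of the difference. After thinning to 2000 UMIs, 28.5% (24.5 to 32.8) and 30% (16.6 to 46.5) of blood progenitor cells had a Hox UMI, while 85.4% and 90% had one before thinning. Since an endothelial gene can be found in blood cells through free RNA, the endothelial markers give the level to set beside this: the median ratio of the 10 markers was 26.3 and 13.6, with kdrl at 54.9 and 18.1, cldn5b at 46.9 and 24.9, pecam1 at 9.59 and 11 and fli1a, which blood progenitors express as well, at 2.45 and 2.10.

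Without any filter, 48 and 45 of the 48 genes had a higher level in endothelial than in blood progenitor cells. In the library labelled other the exceptions were hoxc5a, with 0 endothelial and 2 blood progenitor UMIs, and hoxb1a and hoxc4a with 0 in both. The count of the library labelled isl1-derived takes in hoxc4a and hoxb1a on 1 and 2 endothelial UMIs. No matching share of all genes is given, and the median ratio over all genes with 30 UMIs was above 1 as well. Of the members with at least 30 UMIs in both classes together, 41 of 41 and 31 of 31 were at least 2-fold higher, but a gene that reached this number through the endothelial cells alone had to differ, so the count is a description. Over all genes with 30 UMIs, 37.0% and 39.4% were as much higher in endothelial cells, and 34.7% were in both libraries. The median ratio of these members was 15.5 and 8.73, beside 1.39 and 1.44 over all genes. The first 6, ranked by the interval bound nearest 1 in both libraries and not by the ratio itself, were hoxb3a, hoxc11b, hoxc10a, hoxc12b, hoxb9a and hoxc3a. The level of hoxc11b was 79.5 and 62.8 CPM in endothelial cells against 1.91 and 2.31 CPM in blood progenitor cells, a ratio of 41.7 (27.9 to 65.5) and 27.2 (7.45 to 226). That of hoxc12b was 22.2 and 25.3 CPM against 0.238 CPM in the library labelled isl1-derived, on 3 UMIs, and 0 UMIs in the other, where it was at least 7.31-fold higher against a limit of 3 UMIs over the class.

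The reduction was not the same along the clusters. Groups 12 and 13 were reduced most among the posterior groups of the library labelled isl1-derived, 48.2-fold (31.0 to 79.3) and 35.1-fold (24.5 to 51.9), whereas group 10 was 6.06-fold (5.35 to 6.87) and group 11 7.96-fold (7.17 to 8.85) lower in blood progenitor cells. Group 1 was strongly reduced there as well. Its gene hoxb1b had 72 endothelial and 3 blood progenitor UMIs, a ratio of 28.7 (9.43 to 142), and its other genes had 0 blood progenitor UMIs. In the library labelled other, with 40 blood progenitor cells, the ratios were 10.3 (5.16 to 24.0) for group 12, 17.7 (8.06 to 48.4) for group 13, 7.70 (4.89 to 12.9) for group 10 and 6.82 (4.87 to 9.84) for group 11, and the intervals of groups 10 to 13 overlapped. The gene hoxb13a had 75 and 40 endothelial UMIs and 0 in blood progenitor cells, at least 29.9-fold and 2.87-fold higher against a limit of 3 UMIs over the class. Group 5 had the lowest ratio in the library labelled other, 1.65 (0.702 to 4.72) on 6 blood progenitor UMIs, but 11.9 (6.84 to 22.3) in the library labelled isl1-derived. The summed share of groups 9 to 13 was nevertheless 59.8% (57.6 to 61.9) and 61.7% (54.1 to 68.9) of the blood progenitor Hox UMIs, intervals that held the endothelial shares.

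The highest members in blood progenitor cells of the library labelled isl1-derived were hoxc3a with 28.7 and 19.6 CPM, hoxa11b with 18.1 and 26.5 CPM, hoxd9a with 15.1 and 16.2 CPM and hoxa10b with 14.4 and 9.23 CPM (named after their values were seen). The first 3 also led in the library labelled other, where hoxa4a with 13.8 CPM and hoxb8a with 11.5 CPM came before hoxa10b. The gene hoxa10b, whose mammalian homologue HOXA10 is active in blood progenitors, differed least between the classes among the measured members of the library labelled isl1-derived. It was at 29.8 and 26.5 CPM in endothelial cells, a ratio of 2.06 (1.71 to 2.49) and 2.88 (1.41 to 6.83). A UMI of it was found in 123 of 474 and 6 of 40 blood progenitor cells. Counted per cell, hoxa10b was not higher in endothelial cells. These had 314 UMIs in 1301 and 107 in 573 cells, and blood progenitor cells had 182 in 474 and 8 in 40. The gene hoxa9b of the same cluster was reduced 16.9-fold (11.1 to 27.0) and 5.33-fold (2.22 to 16.7), and hoxd11a 3.52-fold (2.83 to 4.41) and 3.23-fold (1.51 to 8.22). In endothelial cells hoxa10b and hoxc12b stood at 29.8 and 22.2 CPM in the library labelled isl1-derived, in blood progenitor cells of the same library at 14.4 and 0.238 CPM, so these genes did not keep a common ratio in both classes. In cells that met both class rules hoxa10b was at 52.1 (38.7 to 68.7) and 34.3 (12.6 to 74.7) CPM.

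The shares of the clusters changed with the class. The hoxab cluster gave 11.9% (11.4 to 12.4) and 13.1% (12.3 to 14) of endothelial Hox UMIs and 22.1% (20.3 to 24.0) and 21.7% (15.8 to 28.6) of those of blood progenitor cells. The hoxcb cluster went the other way, from 11% (10.5 to 11.5) and 9.23% (8.53 to 9.96) to 3.42% (2.67 to 4.32) and 3.43% (1.27 to 7.31). The intervals of the classes did not overlap for these clusters in either library. In blood progenitor cells hoxa11b and hoxa10b held most hoxab UMIs. They had 228 and 182 of 439 in the library labelled isl1-derived, and 23 and 8 of 38 in the other. In endothelial cells the same genes had 1210 and 314 of 1949, and 581 and 107 of 852. In the library labelled isl1-derived hoxa2b, hoxa9b and hoxa13b had 5, 23 and 1 UMIs in blood progenitor and 47, 325 and 53 in endothelial cells. The hoxba cluster had a lower share in blood progenitor cells of the library labelled isl1-derived, 13.2% (11.8 to 14.8) against 23.2% (22.5 to 23.8), while in the other its endothelial share of 24.6% lay within the blood progenitor interval (19.4%, 13.8 to 26.1). The hoxca share was higher in blood progenitor cells of the library labelled isl1-derived, 27.2% (25.3 to 29.2) against 21.2% (20.5 to 21.8), but 20.6% against 21.8% in the other. In the library labelled isl1-derived hoxc3a gave 361 of 541 hoxca UMIs of blood progenitor cells and 1794 of 3461 of endothelial cells. The hoxaa and hoxda clusters took 10.7% and 21.9% of blood progenitor Hox UMIs in the library labelled isl1-derived against 10.7% and 20.8% of endothelial ones.

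**Figure D3:**
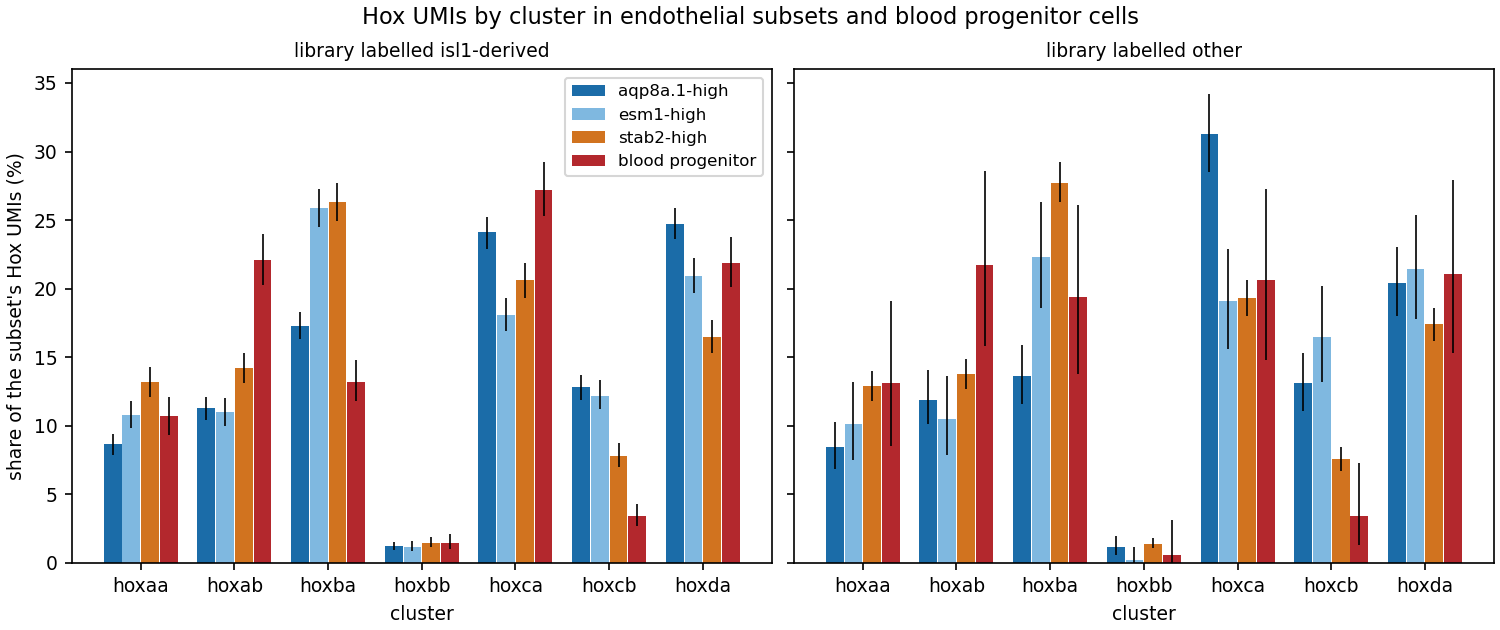
Share of the Hox UMIs (y axis, percent) that came from each of the 7 clusters (x axis) in aqp8a.1-high, esm1-high and stab2-high endothelial cells and in blood progenitor cells, 1 panel per library, with exact binomial 95% intervals. Blood progenitor cells had the largest hoxab share (22.1% and 21.7%) and the smallest hoxcb share (3.42% and 3.43%), and the hoxba share was 17.3% and 13.6% in aqp8a.1-high and 26.3% and 27.7% in stab2-high cells. Most hoxab UMIs of blood progenitor cells came from hoxa11b and hoxa10b.

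Within the endothelium, stab2-high cells held less Hox RNA than aqp8a.1-high cells. The total was 1202 (1164 to 1241) and 1503 (1456 to 1552) CPM against 1933 (1882 to 1986) and 1955 (1839 to 2076) CPM, a ratio of 0.622 (0.596 to 0.648) and 0.769 (0.718 to 0.824). Median depths were near one another, at 6808 and 6154 UMIs against 7854 and 6479.5. In the library labelled isl1-derived the lowest ratios were those of groups 12, 13 and 6, and in the other those of groups 13, 12 and 10. Group 13 had a ratio of 0.340 (0.271 to 0.423) and 0.434 (0.343 to 0.553), group 12 of 0.263 (0.209 to 0.328) and 0.463 (0.360 to 0.601), group 6 of 0.370 (0.295 to 0.462) and 0.594 (0.417 to 0.858), and group 10 of 0.543 (0.472 to 0.623) and 0.546 (0.450 to 0.667). Group 4 did not follow, at 0.987 (0.830 to 1.17) and 1.35 (0.950 to 1.96), and group 7, with hoxb7a as its only member, ran the other way. Group 8 was at 1.09 (0.889 to 1.33), within counting error of 1, and at 1.93 (1.2 to 3.28). Group 9 lay on different sides of 1, with 0.647 (0.592 to 0.707) and 1.19 (0.991 to 1.43).

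**Figure D4:**
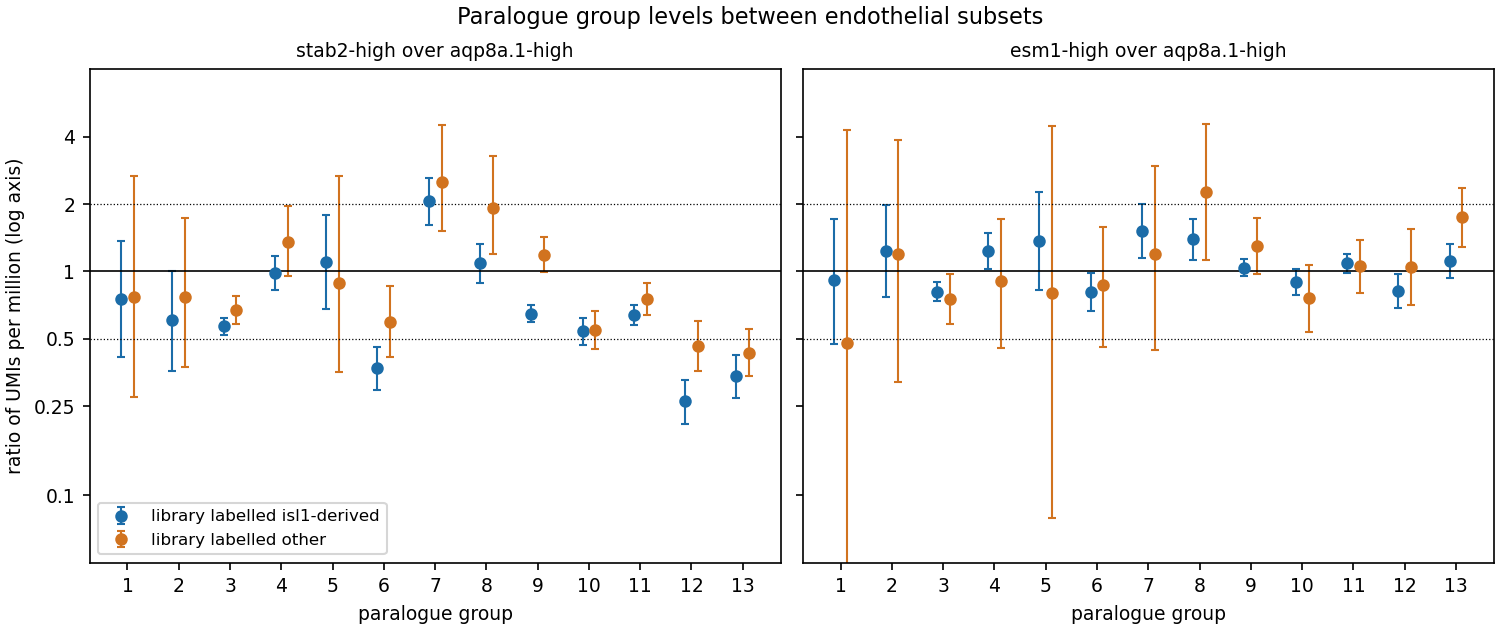
Ratio of the summed level of each paralogue group (x axis) between endothelial subsets (y axis, log scale), stab2-high over aqp8a.1-high on the left and esm1-high over aqp8a.1-high on the right, for each library with exact 95% counting intervals; dotted lines mark 2-fold differences. Groups 12 and 13 lay below 0.5 on the left in both libraries and group 7 above 2, while on the right the points outside the dotted lines were groups 1 (0.479, with an interval that runs below the axis) and 8 (2.27) of the library labelled other.

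By gene, 13 of 35 measured members were at least 2-fold lower in stab2-high cells in the library labelled isl1-derived and 8 of 29 in the other, where 6.84% and 7.30% of all measured genes were. Higher were 1 of 35 and 4 of 29, where 11.4% and 12.8% of all genes were. A gene could be measured through 1 of the subsets alone, as hoxd13a was with 14 against 61 UMIs in the library labelled isl1-derived, so the counts are a description. Without any filter 38 and 28 of the 48 genes were lower and 10 and 17 higher, and no matching share of all genes is given. The median ratio of the measured members was 0.592 and 0.815, beside 1.01 and 1.01 over all genes. The 6 genes lower in both libraries, of 29 measured in both and beside 3.49% of all genes, were hoxc13a, hoxc12b, hoxd3a, hoxc6b, hoxc13b and hoxd11a. The level of hoxc13a was 7.01 and 15.7 CPM in stab2-high cells against 25.4 and 60.7 CPM in aqp8a.1-high cells, a ratio of 0.275 (0.162 to 0.450) and 0.260 (0.160 to 0.425). Its duplicate hoxc13b had ratios of 0.472 (0.317 to 0.695) and 0.365 (0.222 to 0.610), and hoxc12b had 0.366 (0.247 to 0.535) and 0.300 (0.183 to 0.496). The anterior gene hoxd3a was as strongly reduced, from 69.9 and 57.0 to 25.5 and 22.8 CPM, and hoxc6b went from 79.6 and 62.5 to 21.7 and 26.8 CPM. The 2 genes nearest to the count were hoxc10a, with 0.50 (0.393 to 0.634) and 0.328 (0.251 to 0.431), and hoxc3a, with 0.517 (0.457 to 0.584) and 0.458 (0.381 to 0.552).

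The gene hoxb7a alone was at least 2-fold higher in stab2-high cells in both libraries, beside 8.23% of all genes. It was at 75.2 and 74.0 CPM there and at 36.6 and 29.4 CPM in aqp8a.1-high cells, a ratio of 2.06 (1.62 to 2.62) and 2.52 (1.51 to 4.49). Its neighbour hoxb8a was at 52.2 and 52.0 CPM against 43.0 and 20.2 CPM, a ratio of 1.21 (0.954 to 1.55) and 2.57 (1.39 to 5.27). As a whole the hoxba cluster took 26.3% (24.9 to 27.7) and 27.7% (26.3 to 29.2) of Hox UMIs in stab2-high cells against 17.3% (16.3 to 18.3) and 13.6% (11.6 to 15.9) in aqp8a.1-high cells, and hoxcb took 7.82% and 7.54% against 12.8% and 13.1%. The level of hoxba was 316 (296 to 336) and 417 (392 to 442) CPM against 334 (313 to 356) and 267 (225 to 314) CPM. It was thus higher in stab2-high cells of the library labelled other only. Markers of other tissues also moved between these subsets. The 5 mesenchymal markers summed to 108 and 63.4 CPM in stab2-high and to 24.7 and 29.4 CPM in aqp8a.1-high cells, with 5 and 5 against 5 and 3 markers detected, and the 5 muscle markers to 152 and 254 against 25.4 and 42.3 CPM. Most of the stab2-high muscle sum came from tnnt3a (91.1 and 153 against 9.68 and 12.9 CPM) and myhz1.1 (45.2 and 55.9 against 2.15 and 5.52 CPM). Of the mesenchymal sum col1a2 held 73.6 and 36.2 against 9.68 and 5.52 CPM. In the library labelled isl1-derived mylpfa (2.55 against 3.23 CPM), desma (0.637 against 0.717) and twist1a (0.637 against 1.08) were lower in stab2-high cells. In the other, col1a1a was lower (16.5 against 22.1 CPM). The part of both lists in the Hox differences was not tested.

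The esm1-high cells resembled aqp8a.1-high cells in total Hox level, with 1922 and 2059 CPM and a ratio of 0.994 (0.954 to 1.04) and 1.05 (0.943 to 1.18). No member passed the 2-fold limit in both libraries in either direction, of 18 measured in both, where 1.41% of all genes were higher and 2.96% lower. In single libraries, where 3.86% and 4.51% of all genes were higher and 4.41% and 6.42% lower, hoxc8a was lower (0.433, 0.206 to 0.847) in the one labelled isl1-derived, and hoxc3a was lower (0.443, 0.294 to 0.649) and hoxd13a higher (2.12, 0.984 to 4.50) in the one labelled other. The sums of clusters differed all the same. The hoxba cluster was at 497 and 458 CPM in esm1-high against 334 and 267 CPM in aqp8a.1-high cells, a ratio of 1.49 (1.36 to 1.63) and 1.72 (1.32 to 2.23). The hoxca sum was lower, at 0.747 (0.681 to 0.819) and 0.641 (0.501 to 0.812). Most of this drop lay in hoxc3a, which spans other genes of that cluster (157 and 141 against 256 and 318 CPM). Of other hoxca genes, hoxc10a was at 0.848 (0.671 to 1.07) and 0.651 (0.401 to 1.02). The gene hoxc13a was at 1.29 (0.913 to 1.83) and 1.45 (0.790 to 2.61). Group 8 had a ratio of 1.39 (1.13 to 1.72) and 2.27 (1.12 to 4.57), and group 13 of 1.11 (0.932 to 1.32) and 1.75 (1.29 to 2.36) with 33 esm1-high cells in the library labelled other.

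Endothelial cells with none of the split genes high had 1209.9 and 1441 CPM of Hox RNA, 0.626 (0.597 to 0.656) and 0.737 (0.668 to 0.812) of the aqp8a.1-high level. Lower by 2-fold or more were 11 of 34 and 7 of 21 measured members, beside 5.44% and 6.09% of all genes, and higher were 1 and 2, beside 6.53% and 4.64%. The 7 genes lower in both libraries, beside 3.08% of all genes, were hoxc3a, hoxd3a, hoxc6b, hoxc10a, hoxd11a, hoxc12b and hoxd12a. A gene could be measured through the aqp8a.1-high cells alone. Among these 7 genes this held in the library labelled other for hoxc6b (4 against 34 UMIs) and hoxc12b (4 against 30). It also held there for hoxd3a (12 against 31) and hoxd12a (20 against 55), so the counts are a description. Without any filter 37 and 29 of the 48 genes were lower and 11 and 15 higher, and no matching share of all genes is given. Group 12 had a ratio of 0.290 (0.225 to 0.371) and 0.330 (0.205 to 0.515), while group 13 was at 0.891 (0.742 to 1.07) and 0.659 (0.473 to 0.911). Group 8 was higher, by 1.41 (1.15 to 1.74) and 2.01 (1.11 to 3.74).

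Cells that met both the endothelial and the blood progenitor rule had 1131 (1064 to 1199.8) and 1007 (864 to 1167) CPM of Hox RNA. In the library labelled isl1-derived, with 68 such cells, this was 0.728 (0.684 to 0.775) of the endothelial and 7.16-fold (6.65 to 7.72) the blood progenitor level. Of 41 measured members 17 were at least 2-fold lower than in endothelial cells and 1, hoxc6a, higher (2.13, 0.725 to 5.17), beside 15.9% and 8.99% of all genes. A gene could be measured here through its endothelial UMIs alone, as hoxb2a was with 0 against 81 UMIs, so the count of lower members is a description. Among these, the intervals of hoxb5a, hoxb6b, hoxb10a, hoxa13b and hoxb13a included 1. Over blood progenitor cells 20 of 20 measured members were higher, beside 27.4% of all genes. Against endothelial cells group 13 was at 0.278 (0.175 to 0.419), group 7 at 0.302 (0.172 to 0.495), group 8 at 0.304 (0.190 to 0.464) and group 9 at 0.836 (0.737 to 0.944), and hoxa10b was 1.75-fold (1.27 to 2.36) higher. The median depth was 11909.5 UMIs, between those of the single classes, and called doublets had been removed, but whether undetected ones remain was not tested.

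Group 13 UMIs were found in a minority of endothelial cells, and at this depth a cell without one may still hold the RNA. Of 1301 and 573 endothelial cells, 1002 (77.0%) and 377 (65.8%) had no group 13 UMI, 131 (10.1%) and 95 (16.6%) had 1, and 168 (12.9%) and 101 (17.6%) had at least 2. Single cells held UMIs of up to 6 and 5 different group 13 genes. After thinning to 2000 UMIs, 11.9% (10.2 to 13.9) and 17.1% (14.1 to 20.6) of endothelial cells had a group 13 UMI, against 2 of 474 (0.422%) and 1 of 40 (2.5%) blood progenitor cells. Among the subsets the thinned share was 14.6% and 30.7% in aqp8a.1-high, 14.8% and 33.3% in esm1-high and 6.41% (4.19 to 9.32) and 12.1% (8.79 to 16.0) in stab2-high cells.

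Endothelial cells with at least 2 group 13 UMIs differed from those with none in the genes of other groups. They were deeper, with a median of 9908 and 8764 UMIs against 7066 and 5676, and levels are given in CPM, a share of all UMIs. Group 10 was at 259 (236 to 285) and 234 (204 to 267) CPM against 116 (109 to 124) and 149.9 (135 to 166) CPM, and group 12 at 136 (119 to 154) and 147 (124 to 174) against 53.2 (48.2 to 58.7) and 67.7 (57.5 to 79.1) CPM. Of the genes of group 10 only hoxc10a was higher in both libraries, by 5.65 (4.69 to 6.81) and 3.60 (2.79 to 4.66). The others had ratios of 1.56 and 0.959 (hoxa10b), 1.19 and 0.635 (hoxb10a) and 0.985 and 0.570 (hoxd10a). Group 9 was lower, at 221 (199 to 244) and 252 (221 to 286) against 377 (363 to 391) and 344 (321 to 369) CPM. So was group 8, with a ratio of 0.560 (0.437 to 0.709) and 0.636 (0.446 to 0.890), and group 1 had only 3 and 1 UMIs in these cells, a ratio of 0.169 (0.0341 to 0.512) and 0.103 (0.0025 to 0.631). Group 11 had a ratio of 1.23 (1.11 to 1.36) and 1.26 (1.09 to 1.45) over all endothelial cells, but was lower within aqp8a.1-high cells, at 0.799 (0.663 to 0.957) and 0.678 (0.478 to 0.955), and higher within stab2-high cells, at 1.55 (1.18 to 2.0) and 1.36 (1.11 to 1.66).

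Single genes departed further than their groups (these were named after their values were seen). The gene hoxc10a was at 155 and 162 CPM in cells with at least 2 group 13 UMIs against 27.3 and 45.0 CPM in cells with none, a ratio of 5.65 (4.69 to 6.81) and 3.60 (2.79 to 4.66), and hoxc12b had a ratio of 5.21 (3.85 to 7.08) and 3.22 (2.0 to 5.23). The gene hoxd9a was lower, by 0.456 (0.371 to 0.555) and 0.658 (0.493 to 0.868). The split was repeated inside the endothelial subsets, with 58 and 26 aqp8a.1-high and 24 and 43 stab2-high cells that had at least 2 group 13 UMIs. The ratio of hoxc10a was 3.15 (2.32 to 4.29) and 2.34 (1.39 to 4.06) in aqp8a.1-high and 5.37 (3.35 to 8.46) and 3.23 (2.20 to 4.72) in stab2-high cells. Group 9 was lower in each of these 4 sets of cells, by 0.412 to 0.760. Group 8 was not lower in each: it was at 0.437 (0.255 to 0.708) and 1.47 (0.505 to 4.55) in aqp8a.1-high cells. In stab2-high cells group 8 was at 0.772 (0.414 to 1.33) and 0.366 (0.184 to 0.661). Group 10 was higher by 1.38 (1.13 to 1.68) in aqp8a.1-high cells of the library labelled isl1-derived, but was at 1.18 (0.809 to 1.71) in those of the other, and it was higher in stab2-high cells by 2.32 (1.68 to 3.15) and 1.47 (1.14 to 1.89). Group 12 was higher in stab2-high cells, by 6.17 (3.70 to 10.1) and 2.97 (2.13 to 4.14), but not beyond counting error in aqp8a.1-high cells, where it was 1.28 (0.980 to 1.67) and 0.658 (0.409 to 1.05). There hoxc12b was higher in the library labelled isl1-derived, by 3.18 (1.95 to 5.17), and at 0.514 (0.204 to 1.21) in the other.

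**Figure D5:**
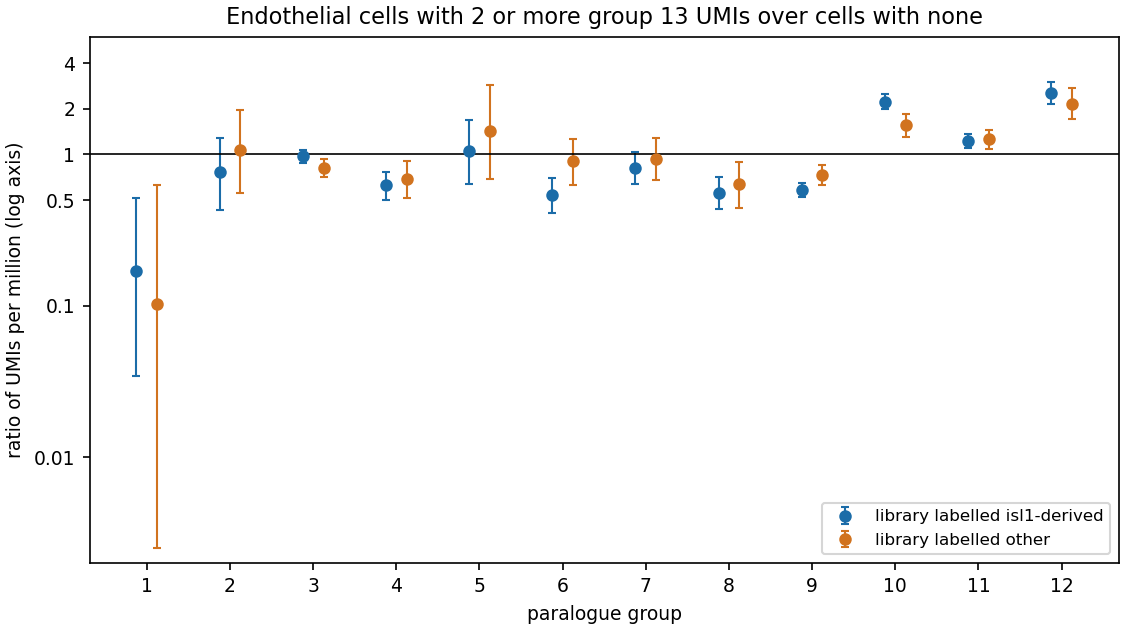
Ratio of the summed level of paralogue groups 1 to 12 (x axis) in endothelial cells with at least 2 group 13 UMIs over those with none (y axis, log scale), for each library with exact 95% counting intervals. With both intervals away from 1, groups 10 (2.23 and 1.56), 11 (1.23 and 1.26) and 12 (2.55 and 2.17) lay above 1, and groups 1, 4, 8 and 9 below it. Of the genes of group 10 only hoxc10a was above 1 in both libraries. Groups 3, 6 and 7 were below 1 and group 5 above it in both libraries, with an interval that included 1 in at least 1 library.

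Zebrafish keep duplicates of many Hox genes from a whole-genome duplication, and the copies contributed unequally. In endothelial cells hoxa11b gave nearly all of its pair, with hoxa11a at 7.77% (6.38 to 9.36) and 12% (9.59 to 14.7), and hoxc6b likewise, with hoxc6a at 6.01% and 8.70%. The copies named a led in hoxb8a (90.6% and 89.3% of its pair), hoxa13a (77.4% and 81.2%), hoxb5a (76.5% and 68.4%), hoxb6a (70.7% and 74.3%) and hoxa9a (62.5% and 68.0%). In group 1 hoxb1b had 72 and 21 UMIs and hoxb1a 2 and 0, and hoxc12b outweighed hoxc12a, which gave 14.9% and 19.7%. The copies hoxc13a and hoxc13b were near balance, with 47.3% (42.6 to 52.0) and 50.4% (43.9 to 56.9) from hoxc13a. The limit on genes that span others applies to hoxc6a, hoxb1b, hoxb5a, hoxb5b, hoxb6a and hoxb6b, so the shares of their pairs are uncertain.

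The balance of hoxc11a and hoxc11b moved with the cell type. The copy hoxc11a gave 24.1% (21.6 to 26.7) and 26.7% (22.1 to 31.7) of the pair in endothelial cells, 20.7% (16.6 to 25.2) and 11.1% (4.19 to 22.6) in aqp8a.1-high cells and 34.1% (27.9 to 40.8) and 32.7% (26.1 to 39.7) in stab2-high cells. In blood progenitor cells of the library labelled isl1-derived it gave 56.4% (42.3 to 69.7) of 31 and 24 UMIs, and the other library had 2 UMIs of each copy. The pair of hoxb8a and hoxb8b was at 26 and 20 UMIs in blood progenitor cells of the library labelled isl1-derived, 56.5% (41.1 to 71.1) from hoxb8a, but all 10 UMIs came from hoxb8a in the library labelled other.

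Between the libraries, the Hox total over all endothelial cells together was nearly equal, with a ratio (first library over second) of 0.964 (0.936 to 0.992), and 1.02 after TMM scaling. Of 42 measured members 4 were at least 1.5-fold lower in the library labelled isl1-derived and 0 higher, beside 11.7% and 7.55% of all measured genes, so the count of lower genes was near the background. They were hoxa11a (9.68 against 19.6 CPM, a ratio of 0.494, 0.365 to 0.671), hoxd13a (13.6 against 25.5 CPM, 0.531, 0.409 to 0.691), hoxc10a (51.4 against 77.9 CPM, 0.660, 0.573 to 0.761) and hoxc12a (0.627, 0.372 to 1.08). By group, group 13 was lower, at 86.3 (80.8 to 92.1) against 122 (112 to 134) CPM with a ratio of 0.706 (0.632 to 0.789), group 12 had a ratio of 0.807 (0.714 to 0.914), and group 9 was higher by 1.11 (1.04 to 1.18). The mix of subsets differed between the libraries, with 422 of 1301 and 360 of 573 endothelial cells stab2-high. The Hox total was 1202 (1164 to 1241) and 1503 (1456 to 1552) CPM in stab2-high cells. It was 1209.9 (1164 to 1257) and 1441 (1334 to 1553) CPM in cells with none of the split genes high. In aqp8a.1-high cells it was 1933 and 1955 CPM, in esm1-high cells 1922 and 2059, and in cells high for both genes 1608 and 1869. The near equality of the sum thus did not hold in each subset. Cells with none of the split genes high had group 13 at 95.1 (82.6 to 109) and 129.6 (99.2 to 167) CPM. Among stab2-high cells groups 12 and 13 had ratios of 0.431 (0.337 to 0.549) and 0.425 (0.336 to 0.536), and 10 of 34 measured members were lower and 0 higher, beside 7.78% and 4.74% of all genes. Among aqp8a.1-high cells group 13 had 0.543 (0.434 to 0.684) and group 9 had 1.61 (1.35 to 1.93), with 7 of 31 members lower and 8 higher, beside 15.6% and 10.4%. Among esm1-high cells, 33 of them in the library labelled other, group 13 had 0.345 (0.266 to 0.451). Neural markers summed to 6.93 and 39.2 CPM and muscle markers to 66.6 and 184 CPM in the endothelial cells of the libraries. The neural list includes isl1 itself, at 2.56 and 20.1 CPM, and tnnt3a held 37.0 and 110.4 CPM of the muscle sum. The part of both lists in these differences was not tested. In blood progenitor cells the ratio of the total was 0.782 (0.669 to 0.918), but 1.17 after TMM scaling, so it had no settled direction.

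The highest Hox levels of the data lay among the remaining cells, which held 449 and 2567 CPM in all. They were divided by the marker list with the highest level in each cell, a division set after the classes had been seen. In the library labelled other, 26 cells with neural markers highest had 4989 (4692 to 5299) CPM of Hox RNA, 80.4% (77.8 to 82.7) of it from groups 9 to 13 and 18.6% from group 13. Their leading gene was hoxc10a with 871 CPM and UMIs in 23 of 26 cells. The library labelled isl1-derived had 1 such cell. Of the TagRFP RNA of the library labelled other, 608 UMIs lay in its remaining cells and 114 in its endothelial cells. Cells with mesenchymal markers highest, 11 and 10 in number, had 3411 (3044 to 3811) and 3391 (3003 to 3815) CPM, of which 62.6% and 36.1% came from group 13. There hoxb13a was at 1209.7 and 367 CPM, in 4 of 11 and 3 of 10 cells, and a single cell held 22.4% and 21.3% of the class's Hox UMIs.

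Other cell types had lower values. In the library labelled isl1-derived 2 cells with myeloid markers highest had 2756 (1189.7 to 5430.0) CPM on 8 Hox UMIs. Cells with muscle markers highest, 3 in each library, had 909 (469.7 to 1588) and 1109.9 (634 to 1802) CPM. Cells assigned to none of the lists, 30 and 3 in number, had 708 (619 to 806) and 1504 (721 to 2767) CPM. Cells with epidermal markers highest, 18 and 4 in number, had 296 (232 to 372) and 194 (52.9 to 497) CPM, and 53 and 7 cells with blood markers highest that had missed the blood progenitor rule had 101 (83.8 to 121) and 98.6 (47.3 to 181) CPM. The 3 and 1 cells with erythroid markers highest had 3 and 0 Hox UMIs. Cells with endothelial markers highest that had missed the endothelial rule, 51 and 28 in number, had 848 (748 to 957) and 1117 (946 to 1310.4) CPM, between the endothelial and the blood progenitor levels.

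Hox proteins bind DNA with partners of the Pbx, Meis and Pknox families, and 13 such genes were counted. Of the measured ones, 5 of 12 and 4 of 10 were at least 2-fold higher in endothelial than in blood progenitor cells and 0 lower, beside 37.0% and 39.4% of all genes higher and 18.7% and 17.0% lower, so the count of higher genes was near the background. Their median ratio was 1.80 and 1.86, beside 1.39 and 1.44 over all genes. The most abundant, pbx1a, was at 257 and 229 CPM against 31.7 and 34.6 CPM, a ratio of 8.12 (7.30 to 9.04) and 6.63 (4.61 to 9.88), and the largest ratios were those of meis2a (26.2, 18.3 to 38.9, and 12.6, 4.85 to 46.6) and pknox2 (14.3 and 7.70). The gene pbx4 was at 137 and 142 CPM against 63.4 and 79.6 CPM, a ratio of 2.15 (1.97 to 2.35) and 1.78 (1.39 to 2.32), and meis1b at 78.0 and 95.5 against 78.0 and 65.8 CPM, a ratio of 1.0 (0.911 to 1.1) and 1.45 (1.1 to 1.95). Between endothelial subsets pknox2 and meis1b were lower in stab2-high than in aqp8a.1-high cells, by 0.159 (0.118 to 0.210) and 0.214 (0.142 to 0.322), and by 0.478 (0.399 to 0.573) and 0.323 (0.254 to 0.411).

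Of 19 genes that act upstream of Hox clusters or beside them in the tail, the retinoic acid receptor genes raraa, rarga and rarab had the most RNA in endothelial cells. Of the measured ones, 6 of 8 and 3 of 5 were at least 2-fold higher in endothelial cells and 0 lower, beside 37.0% and 39.4% of all genes higher and 18.7% and 17.0% lower. A gene could be measured here through its endothelial UMIs alone, so the count of higher genes is a description. The receptor gene raraa was at 144 and 228 CPM in endothelial against 13.8 and 17.3 CPM in blood progenitor cells, a ratio of 10.5 (8.93 to 12.3) and 13.2 (7.96 to 23.7), and rarga had a ratio of 19.8 (14 to 28.9) and 10.3 (4.67 to 28.3). The paralogue rarab had more RNA in blood progenitor cells, with a ratio of 0.682 (0.606 to 0.767) and 0.708 (0.548 to 0.922). In stab2-high cells raraa was at 306 and 296 CPM against 45.5 and 95.6 CPM in aqp8a.1-high cells, 6.72-fold (5.58 to 8.15) and 3.09-fold (2.33 to 4.18) higher. The caudal-type genes were near 0 at this age: cdx4 had 10 and 5 endothelial UMIs and 0 and 0 in blood progenitor cells, and cdx1a and cdx1b had at most 3 UMIs in each of these classes.

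Of 12 genes of the chromatin systems that silence or open Hox clusters, 5 of 12 were at least 2-fold higher in blood progenitor cells and 1 of 12 in endothelial cells in each library, beside 18.7% and 17.0% of all genes for the first direction and 37.0% and 39.4% for the second. The ratio of endothelial over blood progenitor cells was 0.333 (0.289 to 0.382) and 0.273 (0.198 to 0.379) for ezh2, the methyltransferase of Polycomb repressive complex 2, and 0.451 (0.399 to 0.508) and 0.303 (0.223 to 0.415) for eed of the same complex. It was 0.351 (0.313 to 0.393) and 0.283 (0.222 to 0.362) for kdm6bb, a demethylase that removes the mark ezh2 sets, and 0.421 and 0.355 for the insulator gene ctcf. The Polycomb gene bmi1b was higher in endothelial cells, by 2.96 (2.26 to 3.93) and 3.14 (1.29 to 9.96).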

How the data were processed

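Single-cell libraries of 2 sort fractions of zebrafish tails were read as UMI counts per gene and barcode, as the authors deposited them. Cell Ranger 5.0.0 and build GRCz11 come from the submitters' processing notes, while the headers of the matrices give 5.0.1. Counts were deposited without normalization, and features with a shared symbol were summed (27421 features, 26764 symbols). Total counts were 26865577 and 5698957. Barcodes with fewer than 500 genes or with 10% or more of their UMIs from mitochondrial genes were removed, 42 and 21 in number, and doublets called with Scrublet (scanpy 1.11.5) were removed, 15 and 1, so that undetected doublets may remain among the cells that met both class rules. Cells of both rules were kept out of the endothelial and blood progenitor classes.

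UMIs were summed per class and library. Levels are UMIs per 1000000 (CPM) with exact Poisson intervals, shares have Clopper-Pearson intervals and ratios exact conditional binomial intervals, all at 95% and for counting error only. No test was run, since each fraction has 1 library. A gene was measured in a contrast with at least 30 UMIs over its 2 sums together, and was counted as higher or lower at a ratio of 2 between classes or 1.5 between libraries. A contrast between classes or subsets needed 25 cells on either side, a limit not applied to the split by group 13 UMIs. A level at 0 was bounded with 3 counts. The ratio, its interval and the fold call were tested on simulated Poisson counts, which hold no variation between cells. The cell filters, class rules and shares were not tested in this way. The members, marker lists, further lists and thresholds were chosen with earlier results of these data known.

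Genes were named by a rule: the member with most UMIs in each paralogue group, up to 6 genes per direction of a contrast (4 between libraries) ranked by the interval bound nearest 1, duplicate pairs with 100 UMIs, genes with 0 UMIs, and of the lists of cofactors, upstream and chromatin genes up to 4 by UMIs and 2 by ratio, not all of which are printed. The genes named in single libraries, the division of the remaining cells, the split of endothelial cells by group 13 UMIs and other genes named beside these were chosen after their values were seen. Alternatives were other barcode filters, doublets kept, other class thresholds, thinning to 2000 UMIs per cell, TMM scaling (edgeR 4.0.16), means of cell CPM, the 3 cells with most Hox UMIs left out, other limits on UMIs and fold, and UMIs per cell, which was added after the data were seen.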

Additional observations from a re-analysis of the deposited data

Results flagged for a closer look

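Values of the stab2-high over aqp8a.1-high contrast lay on opposite sides of 1 in the libraries for hoxb3a, with both counting intervals away from 1: 0.826 (0.699 to 0.976) under the label isl1-derived and 1.53 (1.15 to 2.08) under the label other. The same held for group 9 in endothelial cells with neither aqp8a.1, stab2 nor esm1 high over aqp8a.1-high cells, at 0.680 (0.616 to 0.751) and 1.38 (1.09 to 1.73). With 1 library per fraction neither difference was tested.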

How the results depend on the processing

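Of 229 values recomputed for 16 results under 17 alternatives, 195 stayed within the counting interval or within 1.5 times of a count, 34 left it and 0 reversed a called direction. For the endothelial over blood progenitor total, an endothelial threshold of 5 or 20 per 10000 gave 11.6 and 8.32 in the library labelled isl1-derived and 20 gave 5.26 in the other. A blood threshold of 3 per 10000 gave 7.75 and 5.80. Thinning gave 7.68, TMM 6.70 and means of cell CPM 7.82 in the library labelled isl1-derived, 9.79 came without the 3 cells with most Hox UMIs in the other, and UMIs per cell gave 3.0 and 2.59. The count of 31 members became 18 after thinning, with 19 measured, and 19 per cell. The endothelial share of groups 9 to 13 was 58.1% and 59.0% at the threshold of 20, 57.3% (library labelled isl1-derived) after thinning, and 56.0% and 57.5% by means of cell CPM. The blood progenitor share in the library labelled isl1-derived was 57.2% at 3 per 10000 and 62.2% after thinning. The stab2-high over aqp8a.1-high ratio of group 13 was 0.470 with split thresholds halved and 0.233 with them doubled (library labelled isl1-derived). The total ratio was 0.582 after thinning, 0.596 by means of cell CPM and 0.585 per cell in that library, and 0.824 under TMM in the other, and esm1-high over aqp8a.1-high was 0.912 under TMM and 1.06 per cell. Between libraries the endothelial total was 1.02 under TMM and 1.11 per cell, and the blood progenitor total 0.618 at the threshold of 20, 1.17 under TMM, 0.933 without the 3 cells and 0.959 per cell, so that both totals, and that of esm1-high over aqp8a.1-high cells, lay on either side of 1 with the setting.

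TMM moved all log2 ratios of the endothelial over blood progenitor contrast by -0.55 in the library labelled isl1-derived and those of blood progenitor cells between libraries by 0.58. The level of blood progenitor cells in the library labelled other rests on 40 cells and 175 Hox UMIs, of which 5 cells held 38.9%, which limits every value given for it. The library of each fraction had no replicate, so none could be left out. No paired analysis was possible because each fraction had 1 library and no test was run.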
